A study of Mus musculus with 8 samples.

Results

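H3K4me3 and RNA polymerase II (Pol II) were compared across the genome of stimulated mouse macrophages, using the 2 libraries made 4 h after stimulation. They are 2 of the 8 libraries of the series. The H3K4me3 list held 19631 clusters, each with a start, an end and a count, and the Pol II list held 57513 single positions, each with a count. All of these entries were used, out of 364537 in the 8 lists. A cluster was said to hold Pol II when a Pol II position lay within it or within 250 bp of its edge, and such a position is called inside. The other positions were divided into those within 5 kb of a cluster edge and those farther away. The rule for libraries and zones sets no threshold on the counts.

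The cells were bone marrow-derived macrophages, grown from marrow of female Fvb mice 6 to 8 weeks old, and the labels give no number of mice per library. Stimulated cells received lipopolysaccharide and interferon gamma and were taken at 4 h (H3K4me3, H3K27me3, Pol II) or at 2 h (Pol II and the H3K27 demethylase Jmjd3), and untreated cells gave H3K4me3, H3K27me3 and Pol II. With 1 library per antibody and time, the spread between replicates is unknown and differences are given without p-values. Brackets hold exact 95% binomial intervals for shares and 95% Wald intervals for differences of shares. They cover counting error only, and neighbouring peaks are not independent.

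H3K4me3 is the trimethylated form of lysine 4 of histone H3, laid down by SET1 and MLL complexes around the start sites of active and poised genes. Pol II gathers at those start sites, pauses shortly downstream and then crosses the gene body, where H3K4me3 is largely absent. H3K27me3, the Polycomb mark, can share a promoter with H3K4me3, a state called bivalent that is known for low transcription. Lipopolysaccharide and interferon gamma set off rapid transcription of inflammatory and antiviral genes in macrophages.

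The count of each entry, which the file headers call the maximum overlap count, is the value the authors gave each peak. It ran from 11 to 365 for H3K4me3 clusters (median 97) and from 11 to 401 for Pol II positions (median 19). Clusters were 316 to 51085 bp wide, with a median of 2870 bp and 63.9 Mb in all. The labels give only a lower limit on the uniquely mapped tags per library, so depth was unknown. Classes were formed within each list, and where counts of different libraries stand side by side, part of a difference can be depth, which was not tested. The lowest count was 9 in the untreated Pol II list, 10 at 2 h and 11 at 4 h, so a position low in one list can be missing from another. The highest counts lay close together in the H3K27me3 lists (401 at 4 h and 397 in untreated cells) and in the Pol II lists at 2 and 4 h (402 and 401), and whether counts had a ceiling is not given in the sources used here. On 7 chromosomes the untreated Pol II list ended 3.04 to 17.3 Mb early, and 550 clusters at 4 h lay beyond its last positions. Regions are named by mm8 position, and gene annotation, macrophage marker genes and sequence were not analysed here.

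Most H3K4me3 clusters held Pol II, whereas most Pol II positions lay outside clusters. Of the 19631 clusters, 12502 held at least 1 Pol II position (63.7%, 63.0 to 64.4). Of the 57513 Pol II positions, 20736 were inside clusters (36.1%, 35.7 to 36.4), 9072 were outside and within 5 kb (15.8%, 15.5 to 16.1) and 27705 were farther away (48.2%, 47.8 to 48.6). Clusters with their 250 bp margins covered 73.5 Mb, or 2.87% of the 2564 Mb spanned by the 8 lists. Pol II was therefore listed at 282 positions per Mb inside clusters, 56.0 per Mb in the 5 kb around them and 11.9 per Mb elsewhere. Among positions above the median Pol II count, 55.4% were inside.

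Wider clusters held Pol II more often. In the 4 width classes, bounded by the quartiles of the list, the share holding Pol II was 33.0% (31.7 to 34.3) at 316 to 1966 bp, 59.6% (58.2 to 61.0) at 1967 to 2870 bp, 75.2% (74.0 to 76.4) at 2871 to 4020 bp and 87.0% (86.0 to 87.9) at 4021 bp and above. The widest class exceeded the narrowest by 54.0 percentage points (52.4 to 55.6). A wider cluster offers more bases to a position, and per kb of cluster the spread was narrower. Pol II positions numbered 0.251, 0.280, 0.284 and 0.387 per kb from the narrowest to the widest class. A window of 1 kb around the cluster's centre, the same for all widths, had Pol II in 31.0%, 47.2%, 43.5% and 39.9% of clusters. The widest exceeded the narrowest by 8.89 points. The tallest position lay a median of 1005 bp from the centre in the widest class and 183.5 bp in the narrowest. The window thus missed more of the Pol II of wide clusters, and 8.89 points is not the width difference at equal bases. With only the clusters above the median H3K4me3 count, and width classes redrawn from these clusters, the widest class exceeded the narrowest by 7.68 points.

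The count of a cluster separated clusters more than its width did. Pol II was held by 29.3% (28.0 to 30.6) of clusters of count 11 to 23, by 39.0% (37.7 to 40.4) of those of 24 to 97, by 88.0% (87.1 to 88.9) of those of 98 to 193 and by 99.0% (98.7 to 99.3) of those of 194 to 365. The largest step lay between the middle classes, 98 to 193 over 24 to 97, at 49.0 points (47.3 to 50.6). The highest class exceeded the lowest by 69.8 points (68.5 to 71.1). High-count clusters were also wider, with median widths of 1759, 2404, 3374 and 3942 bp from the lowest to the highest class. Within a width class, the highest count class still exceeded the lowest, by 70.1 points (64.6 to 75.6) among the narrowest clusters. Among the widest it did so by 57.0 points (51.2 to 62.8), and the mean over the 4 width classes was 63.4 points (61.0 to 65.7). Widths there were not equal. Among the narrowest clusters the median width was 1819 bp at the highest counts and 1379 bp at the lowest. Among the widest it was 5179 and 4834 bp. In the window of 1 kb at the centre, the highest count class exceeded the lowest by 30.6 points. The shares were 23.5%, 29.0%, 55.3% and 54.1% from the lowest to the highest count. That window covered a smaller part of the high-count clusters, which were wider. Restricted to clusters above the median count, with count classes redrawn from these clusters, the highest class exceeded the lowest by 19.9 points.

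**Figure D1:**
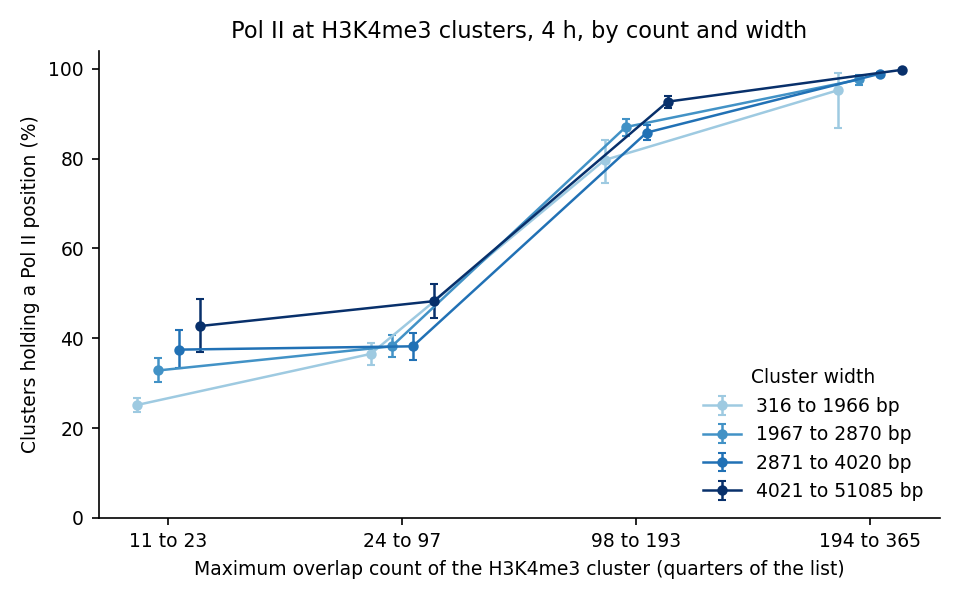
Share of H3K4me3 clusters at 4 h that held a Pol II position (%), by the cluster's count class (x axis) and width class (line colour). Bars are exact 95% binomial intervals. The 4 width classes span 25.1% to 42.7% in the lowest count class and 95.2% to 99.7% in the highest.

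Within a count class, width made a smaller difference, but counts there were not equal. At 24 to 97 the median count was 57 in the widest class and 38 in the narrowest. At 98 to 193 it was 162 and 133. The widest class exceeded the narrowest by 17.6 points (11.6 to 23.6) at counts of 11 to 23, by 11.7 points (7.31 to 16.2) at 24 to 97 and by 13.0 points (8.24 to 17.8) at 98 to 193. At 194 to 365 the interval included 0 (4.50 points, -0.759 to 9.77). The 2 extreme corners show the order of the measures: 60 of 63 clusters that were narrowest and highest in count held Pol II (95.2%, 86.7 to 99.0), against 120 of 281 that were widest and lowest (42.7%, 36.8 to 48.7). H3K27me3 overlapped 1.59% (0.0402 to 8.53) of the narrow high clusters and 41.6% (35.8 to 47.6) of the wide low ones. Among the wide low clusters it overlapped 12 of the 120 that held Pol II and 105 of the 161 that did not.

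H3K27me3 at 4 h followed another course along the H3K4me3 count than Pol II did. The share of clusters with Pol II was 26.9% (25.2 to 28.6) at counts of 11 to 14, 36.7% (34.1 to 39.3) at 40 to 59, 52.8% (49.2 to 56.4) at 80 to 99, 72.7% (69.5 to 75.8) at 100 to 119 and 97.0% (96.3 to 97.6) at 160 to 199. The share overlapping H3K27me3 was 28.0% (26.3 to 29.8) at 11 to 14, peaked at 56.1% (52.8 to 59.3) at 60 to 79, and was 10.1% (9.06 to 11.3) at 160 to 199. Clusters with neither made up 46.9% at 11 to 14 and 1.75% at 160 to 199. Over the range of 80 to 99, both shares were above 50%, and 16.2% of the clusters had both.

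**Figure D2:**
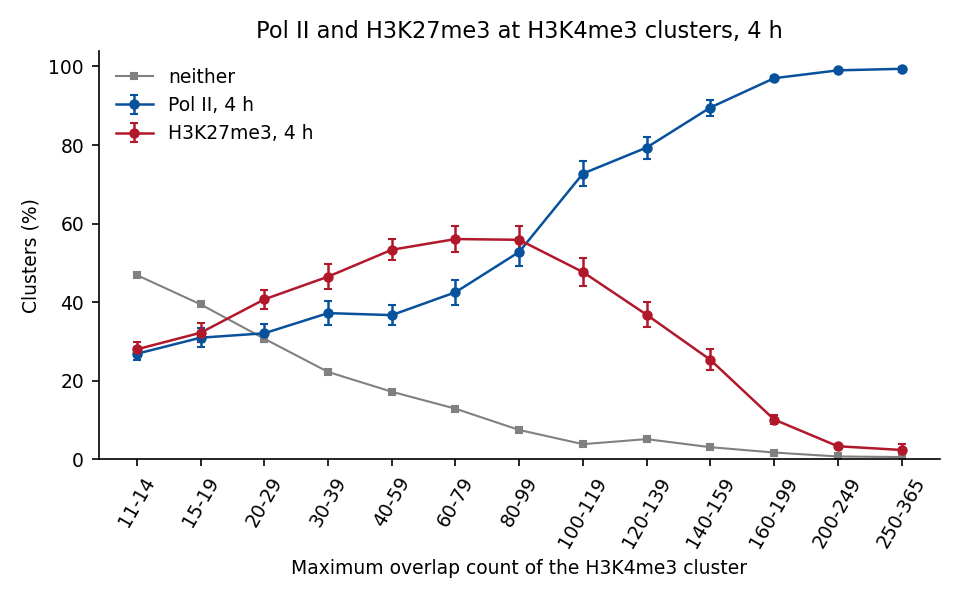
Share of H3K4me3 clusters at 4 h (%) that held Pol II, overlapped H3K27me3, or had neither, in 13 bins of the cluster's maximum overlap count (x axis). Bars are exact 95% binomial intervals; Pol II and H3K27me3 are at 52.8% and 55.9% in the bin of 80 to 99, and at 99.0% and 3.35% in the bin of 200 to 249.

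By combined state, 11042 clusters (56.2%) held Pol II without H3K27me3 and 1460 (7.44%) held both. H3K27me3 without Pol II marked 3956 clusters (20.2%), and 3173 (16.2%) had neither. Clusters with Pol II alone had a median H3K4me3 count of 181 and a median width of 3360 bp, and those with both had 121 and 3341 bp. Clusters with H3K27me3 alone had a median count of 34 and width of 2526 bp, against 17 and 1610 bp for clusters with neither. The tallest Pol II position of a cluster had a median count of 32 in clusters with both marks and 66 in clusters with Pol II alone. Pol II was held by 1460 of the 5416 clusters overlapping H3K27me3 and by 11042 of the 14215 others (77.7%, 77.0 to 78.4). At counts of 24 to 97 these shares were 16.3% and 63.1%, and at 98 to 193 they were 63.4% and 95.9%. At 194 to 365 they were 93.9% (89.4 to 96.9) and 99.2% (99.0 to 99.5), so in the highest class most clusters with H3K27me3 also held Pol II.

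Most clusters that held Pol II held a single position. Exactly 1 was held by 8721 clusters, 2 by 2025, 3 by 719, 4 by 402 and 5 or more by 635. The 635 clusters with 5 or more were 3.23% of all clusters and had 20.3% of the inside positions. They were wide, with a median of 8124 bp against 2977 bp for clusters with 1 position, while their median H3K4me3 counts were closer (193 and 170). Per kb, clusters of 10 kb and above had 0.643 positions, those of 7 to 10 kb had 0.487 and those of 2.5 to 3 kb had 0.288. Within clusters, neighbouring positions were 504 to 8201 bp apart (median 1154 bp). In the 3619 clusters with several positions between their edges, the tallest had a median of 2.17 times the count of the next (quartiles 1.35 and 4.55).

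The height of Pol II inside a cluster went with the cluster's own count. The tallest position held had a median count of 22 in clusters of the lowest count class, then 29, 63 and 89 in the highest. By width it was 25, 43, 65 and 93 from the narrowest to the widest. A position of count over 100 was held by 0.803% (0.575 to 1.09) of clusters in the lowest count class, 3.35% (2.86 to 3.89) and 22.8% (21.6 to 24.0) in the middle classes and 41.5% (40.1 to 42.9) in the highest. Read the other way, holding clusters whose tallest Pol II count was 11 to 29 had a median H3K4me3 count of 54 (quartiles 19 and 143), and those at 105 to 401 had 205 (173 and 229). The quartile ranges of these extreme classes did not overlap.

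Pol II lay towards the middle of clusters, away from their edges. The tallest position of a cluster was a median of 461 bp from the centre (quartiles 206.5 and 865.5 bp, 12471 clusters). It fell in the central 20% of the width in 33.4% (32.6 to 34.3) of them, and in the outer 20%, taking both ends together, in 1.70% (1.48 to 1.94). This central lean was weaker in wide clusters. The central 20% held the tallest position in 39.9% (37.5 to 42.4) of the narrowest class, 40.8% (39.0 to 42.6) and 35.9% (34.4 to 37.5) of the middle classes and 23.8% (22.5 to 25.1) of the widest. In the widest class the tallest position was a median of 1005 bp from the centre. Positions in the central 20% were also taller than those in the outer 20%, with median counts of 46 and 22. Where a cluster had exactly 2 positions between its edges, they lay on either side of the centre in 1335 of 1973 cases (67.7%). Neighbouring positions within clusters were at least 504 bp apart. The share that such spacing alone would give was not tested, so no lean is read from this value.

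Across the cluster edge, both the density and the count of Pol II changed over the outer 1.5 kb of the cluster. From 1 to 1.5 kb within the edge there were 0.448 positions per kb of available cluster, with a median count of 56. From 500 bp within to the edge itself there were 0.107 per kb with a median count of 20.5. The deeper bin had 11.9 Mb of available cluster, against 19.5 Mb at the edge. Clusters of the narrowest width class do not reach it, so these bins differ in cluster width as well. Outside, the first 500 bp had 0.0517 per kb with a median of 17, and at 4.5 to 5 kb the values were 0.0518 per kb and 16. In the bins between, density ran up to 0.0634 per kb, so it changed little over the 5 kb outside. The positions nearest to the 250 bp limit were low on both sides of it, with medians of 17.5 for the 230 positions just within it and 16.5 for the 278 just beyond it. Those nearest to the 5 kb limit had medians of 16 on both sides.

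**Figure D3:**
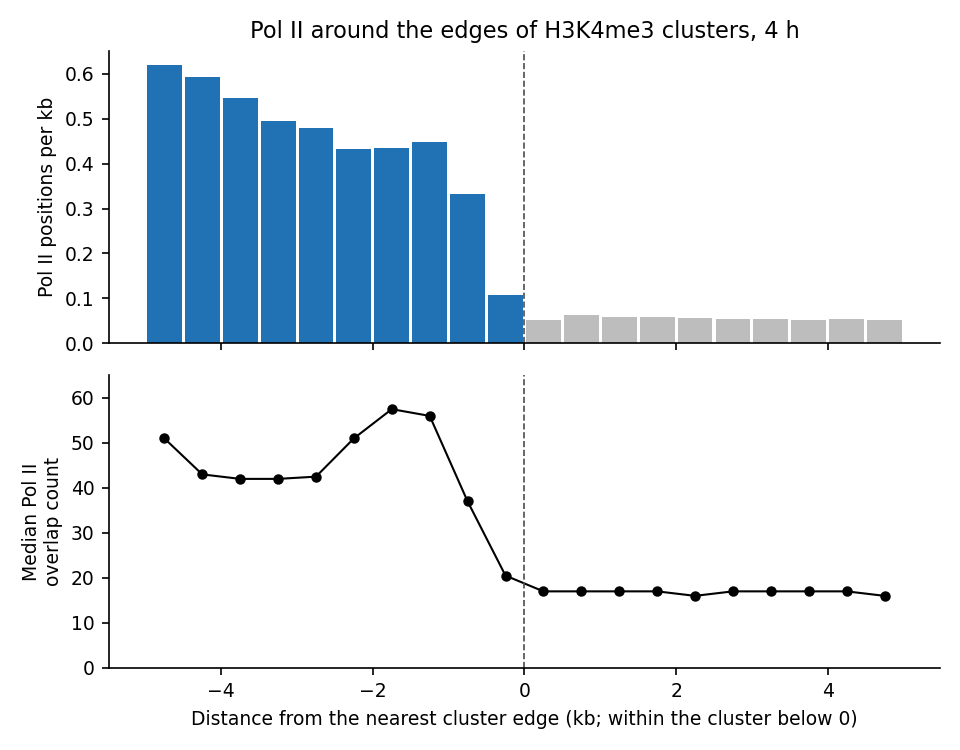
Pol II positions per kb of available sequence (upper panel) and their median overlap count (lower panel) in bins of 500 bp from the nearest edge of an H3K4me3 cluster at 4 h; negative distances (blue) are within clusters. Density was 0.448 per kb at 1 to 1.5 kb within the edge and 0.0517 per kb in the first bin outside. Bins deeper within clusters leave out narrower clusters, and the deepest come from wide clusters alone.

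The count of a Pol II position depended on the zone. Inside clusters the median count was 42 (quartiles 20 and 85), within 5 kb it was 17 (13 and 26) and farther away 16 (12 and 23). The inside median exceeded the far median by 26. Counts over 100 were reached by 3931 inside positions (19.0%), 149 near positions (1.64%) and 223 far positions (0.805%). The lowest listed count, 11, was that of 3.62% of inside, 11.8% of near and 14.6% of far positions. The near and far zones were thus alike in count, and the inside zone stood apart from both.

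By Pol II count, the inside share grew steadily. It was 13.7% (13.2 to 14.3) at counts of 11 to 13, 19.9% (19.2 to 20.5) at 14 to 19, 34.6% (33.8 to 35.4) at 20 to 39 and 77.3% (76.6 to 78.0) at 40 to 401. The share farther than 5 kb was 67.7% (66.9 to 68.4), 60.4% (59.6 to 61.2), 48.4% (47.6 to 49.2) and 15.2% (14.6 to 15.8) in the same classes. The near share was 18.6%, 19.7%, 17.0% and 7.49%. At 30 to 39, inside and far positions were about equal in number, at 43.4% (41.9 to 44.8) and 41.6% (40.2 to 43.0). From 100 upward the inside share levelled off: it was 90.9% (89.8 to 92.0) at 100 to 149, 92.2% (90.4 to 93.8) at 150 to 199 and 92.0% (89.8 to 94.0) at 200 to 401.

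**Figure D4:**
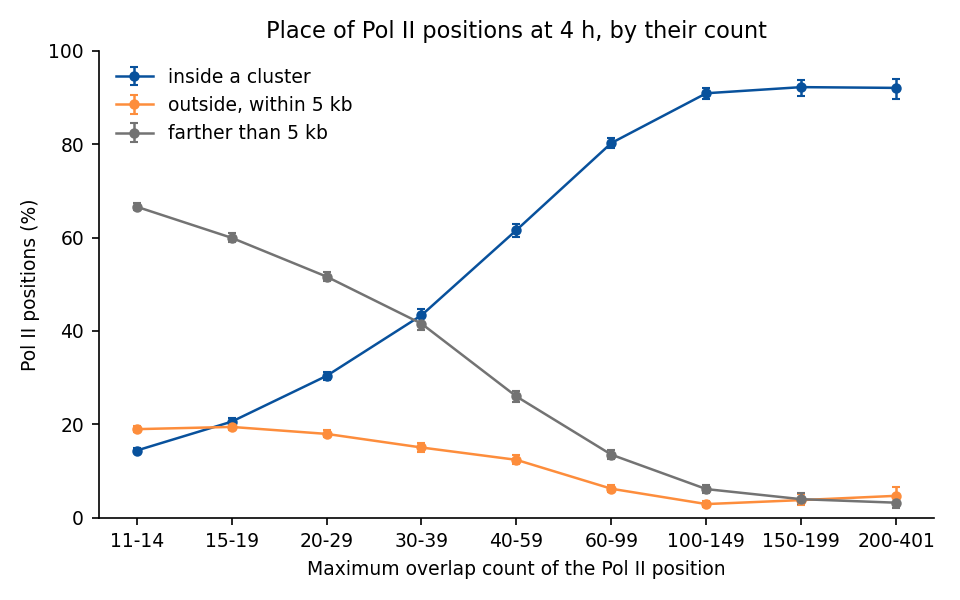
Share of Pol II positions at 4 h (%) that lay inside H3K4me3 clusters, outside and within 5 kb, or farther away, in 9 bins of the position's maximum overlap count (x axis). Bars are exact 95% binomial intervals; the inside share is 14.4% in the bin of 11 to 14 and 90.9% in the bin of 100 to 149.

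Within clusters, positions were taller where the H3K4me3 count was higher. Their median count was 21 in clusters of the lowest count class, then 27, 46 and 60 in the highest, and counts over 100 made up 2.37%, 7.24%, 18.9% and 27.1% of them. By width the medians were 24, 38, 52 and 45 from the narrowest to the widest class, so the widest class, with the most positions per cluster, did not have the highest median.

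Positions near a cluster were almost all next to one that held Pol II. Of the 9072 near positions, 8609 (94.9%, 94.4 to 95.3) had a holding cluster as their nearest, with a median count of 17, and 463 had a cluster without Pol II, with a median of 14. Of holding clusters, 27.3% (26.5 to 28.1) had a near position assigned to them, against 4.35% (3.89 to 4.85) of clusters without Pol II. Among holding clusters this share was highest in the lowest count class, at 39.8% (37.3 to 42.4), followed by 25.2%, 22.3% and 28.7%.

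Far positions were mostly in runs of Pol II. Positions less than 5 kb from the next were chained into runs. Of the 27701 far positions outside chromosome M, 12233 (44.2%, 43.6 to 44.7) were in a run that reached into a cluster, 11683 (42.2%, 41.6 to 42.8) in a run that did not and 3785 (13.7%, 13.3 to 14.1) stood alone. Their median counts were 19, 14 and 13. With positions chained at less than 2 kb the share in runs reaching a cluster was 9.15%, and at less than 10 kb it was 64.2%. Runs of 10 or more positions numbered 1124, of which 891 (79.3%) reached a cluster, against 4149 of the 6770 runs of 2 or more (61.3%). The longer runs also spanned more sequence, with a median of 24.4 kb against 4.1 kb. The longest run had 240 positions over 288 kb. The median far position was 19.8 kb from the nearest cluster (quartiles 10.8 and 38.1 kb). Density was lower with distance, at 43.9 positions per Mb at 5 to 10 kb, 37.1 at 10 to 20 kb, 23.6 at 20 to 50 kb and 9.77 at 50 to 100 kb.

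Clusters without Pol II were lower and narrower than those with it. The 12502 holding clusters had a median H3K4me3 count of 173 (quartiles 86 and 213) and a median width of 3359 bp, against 24 (14 and 52) and 2076 bp for the 7129 without. Their nearest Pol II position was a median of 34.2 kb away (quartiles 11.8 and 91.6 kb). It was within 1 kb for 1.50% (1.23 to 1.81) of them, at 1 to 5 kb for 9.97%, at 5 to 20 kb for 24.5%, at 20 to 100 kb for 41.0% and beyond 100 kb for 23.1% (22.1 to 24.1). By count class, from the lowest to the highest, 11.1%, 8.72%, 8.77% and 21.7% had it at 1 to 5 kb, and 23.1%, 23.1%, 22.8% and 19.6% beyond 100 kb. The highest class had only 46 such clusters, with intervals of 10.9 to 36.4 at 1 to 5 kb and 9.36 to 33.9 beyond 100 kb.

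Jmjd3 was listed mostly at clusters that held Pol II. Jmjd3 at 2 h overlapped 22.3% (21.6 to 23.1) of clusters that held Pol II at 4 h and 1.43% (1.17 to 1.73) of those that did not, a difference of 20.9 points (20.1 to 21.7). Within count classes the difference was 7.71 points (6.19 to 9.22) in the lowest class and 28.6 (24.2 to 33.0) in the highest. In the middle classes it was 10.8 (9.34 to 12.3) and 17.8 (15.8 to 19.9). Counts within a class were not always equal. In the higher of the middle classes, median H3K4me3 counts were 164 with Pol II alone and 140 with Pol II and H3K27me3. Clusters without Pol II there had 122 with H3K27me3 and 138.5 with neither. In the lowest class these medians were 15, 16, 15 and 14. The difference at equal counts was not tested. Jmjd3 was at 15.6% of clusters with 1 Pol II position and 69.4% of those with 5 or more, which were wider. By the tallest Pol II position, it was at 6.52% (5.68 to 7.44) of holding clusters at 11 to 29 and 48.1% (46.4 to 49.9) at 105 to 401. Clusters at 105 to 401 were also wider, with a median of 4393 bp against 2495 bp. Their median H3K4me3 count was 205 against 54. Jmjd3 at equal width and count was not tested.

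H3K27me3 at 4 h overlapped 11.7% (11.1 to 12.3) of holding clusters and 55.5% (54.3 to 56.6) of those without, a difference of -43.8 points (-45.1 to -42.5). The difference was negative in all 4 count classes, at -31.8, -49.1, -56.5 and -20.4 points from the lowest to the highest, and the highest class had only 46 clusters without Pol II. By width it was -24.0 points (-26.2 to -21.7) in the narrowest class and -72.2 (-75.2 to -69.1) in the widest. H3K27me3 of untreated cells gave 12.2% (11.6 to 12.7) and 53.4% (52.2 to 54.6) at the same clusters. An H3K4me3 cluster of untreated cells overlapped 97.7% (97.5 to 98.0) of holding clusters and 90.0% (89.3 to 90.7) of the others. In the lowest count class those shares were 82.5% and 79.8%.

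**Figure D5:**
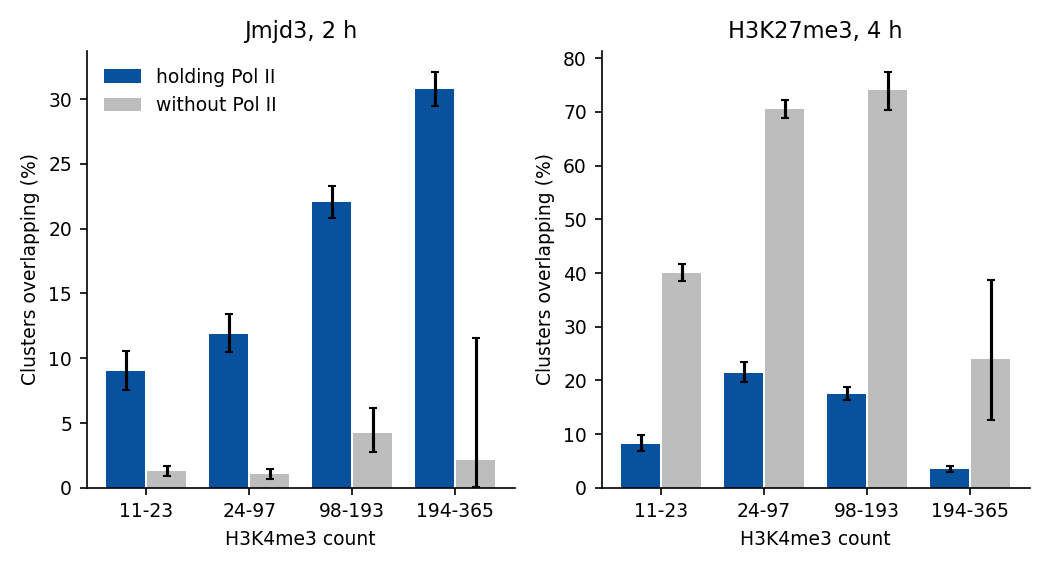
Share of H3K4me3 clusters at 4 h (%) that overlapped Jmjd3 at 2 h (left) and H3K27me3 at 4 h (right), for clusters holding Pol II (blue) and without it (grey), by the cluster's count class. Bars are exact 95% binomial intervals; Jmjd3 is at 30.8% and H3K27me3 at 3.55% of holding clusters of the highest count, against 2.17% and 23.9% of the 46 without.

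At the Pol II positions themselves, Jmjd3 was listed at 15.3% (14.8 to 15.8) of those inside, 1.04% (0.838 to 1.27) of those within 5 kb and 0.762% (0.663 to 0.871) of those farther away. Among positions of count 40 to 401 the shares were 24.7% (23.9 to 25.5), 3.90% (2.82 to 5.26) and 2.48% (1.86 to 3.23). Inside positions were taller within that class too, since 2987 of 10836 inside and 1260 of 2135 far positions had counts of 40 to 59. In the narrow class of 11 to 13 the Jmjd3 shares were 2.28% (1.67 to 3.02) inside, 0.402% (0.201 to 0.718) near and 0.392% (0.279 to 0.535) far. H3K27me3 at 4 h overlapped 5.64% of inside, 1.57% of near and 1.92% of far positions. In the class of 40 to 401 the far share, 5.06% (4.17 to 6.08), was above the inside share of 3.48% (3.14 to 3.84). An H3K4me3 cluster of untreated cells was listed at 963 of the 9072 near positions (10.6%, 9.99 to 11.3) and 831 of the 27705 far ones, none of which lay in a cluster at 4 h.

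Inside positions were found again at the other times more often than positions elsewhere. A Pol II position at 2 h overlapped 85.0% (84.5 to 85.5) of inside, 61.3% (60.3 to 62.3) of near and 56.8% (56.2 to 57.4) of far positions. With untreated cells, on the parts of chromosomes their list covered, the shares were 76.8% (76.3 to 77.4), 49.8% (48.8 to 50.9) and 42.8% (42.2 to 43.4). Taller positions were found again more often in every zone. At counts of 40 to 401 the shares at 2 h were 96.2% inside, 86.5% near and 86.8% far. At 11 to 13 they were 49.1% inside and 38.8% far.

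Most clusters of the 4 h list had Pol II at every time or at none. On the parts of chromosomes covered at all times there were 19081 clusters, of which 10905 (57.2%, 56.4 to 57.9) held Pol II at 0, 2 and 4 h and 5468 (28.7%, 28.0 to 29.3) at none. Pol II at 2 and 4 h without 0 h was seen at 740 clusters (3.88%, 3.61 to 4.16), and at 4 h alone at 188 (0.985%, 0.850 to 1.14). Untreated cells alone had Pol II at 752 (3.94%, 3.67 to 4.23). The 740 clusters had a median H3K4me3 count of 39 and their tallest Pol II position a median of 19, against 183 and 68 for clusters with Pol II at all 3 times. Jmjd3 was at 131 of the 740 (17.7%), at 23.6% (22.8 to 24.4) of those with Pol II throughout, at 4.79% (2.21 to 8.89) of those with Pol II at 4 h alone and at 0.823% (0.601 to 1.10) of those with none. H3K27me3 at 4 h overlapped 30.7% (27.4 to 34.1) of the 740, 9.76% (9.21 to 10.3) of those with Pol II throughout and 62.3% (61.0 to 63.5) of those with none.

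The same pairing was made in untreated cells. Of the H3K4me3 clusters, 63.7% held Pol II at 4 h, against 60.4% in untreated cells, a difference of 3.26 points (2.32 to 4.20), and 1.66 points (0.715 to 2.61) without the 7 chromosome ends. The difference depended on list length. It was 6.81 points with Pol II positions of both times at counts of 11 and above. That limit removed untreated positions alone, since the 4 h list starts at 11, so it could only raise the difference. With lists of equal length, which dropped the lowest 4 h positions and the lowest untreated clusters, the difference was -0.173 points (-1.13 to 0.780). Dropping positions could only lower the 4 h share. The lowest count class of untreated clusters held Pol II less often than all untreated clusters, so this choice leaned towards a lower difference. Without the chromosome ends these values were 5.32 and -1.81 points. For the latter, the ends were left out after the lists were made equal, which left the 4 h Pol II list the shorter. By each list's own classes and without the chromosome ends, the third count class differed most, by 6.65 points (5.25 to 8.05). It had 88.0% (87.0 to 88.9) at 4 h and 81.3% (80.2 to 82.4) in untreated cells. That class spanned counts of 98 to 193 at 4 h but 79 to 182 in untreated cells, so clusters of unlike count were compared. The lowest class had 29.4% at 4 h and 31.0% in untreated cells, and the interval of that difference included 0 (-3.46 to 0.128). The width classes, whose bounds also differed between the lists, differed in both directions. The narrowest ended at 1966 bp at 4 h and at 1882 bp in untreated cells. At 4 h the share was higher by 5.98 points (4.17 to 7.79) in the narrowest class and 4.40 points (2.45 to 6.34) in the next, while the differences in the 2 wider classes were -1.99 (-3.66 to -0.324) and -1.66 points (-2.94 to -0.381). Of Pol II positions on the same parts of chromosomes, 36.1% (35.7 to 36.5) were inside clusters at 4 h and 38.3% (37.9 to 38.7) in untreated cells, and 48.1% (47.7 to 48.5) and 44.6% (44.2 to 45.0) were farther than 5 kb. Their median counts inside and far were 42 and 16 at 4 h, and 25 and 11 in untreated cells, on lists that, without the chromosome ends, had medians of 20 and 14.

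Named regions came from the ends of these orders. The cluster of highest count (365) spanned 47576030 to 47581446 on chromosome 6. It held 1 Pol II position of count 13, near the bottom of the list, and overlapped Jmjd3 and H3K27me3. Next came 32901769 to 32906951 on chromosome 17 (count 328), with 1 position of count 65, and 12448574 to 12451753 on chromosome 13 (311), with 1 of count 17. The fourth, 165682406 to 165688397 on chromosome 2 (306), held positions of count 45 and 161, and the fifth, 91818193 to 91821683 on chromosome 16 (305), held 1 of count 76. The clusters of highest H3K4me3 count were thus not those with the tallest Pol II.

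The widest cluster, 51085 bp at 3049251 to 3100335 on chromosome 11, had the most Pol II positions, 42, with a median count of 22 and a tallest of 200. It also had 43 Jmjd3 peaks at 2 h and 42 H3K27me3 peaks at 4 h, numbers close to that of Pol II. Its neighbour at 3026677 to 3049149 was like it, with 20 Pol II positions, 21 Jmjd3 and 20 H3K27me3 peaks. Over the whole list, 254 clusters (1.29%) were on all 8 lists, and they held 571 Pol II positions. Without these 254 clusters, 63.2% of clusters held Pol II. All 254 held Pol II by definition, so leaving them out could only lower the share. Wide clusters without H3K27me3 included 5822227 to 5853762 on chromosome 19, with 25 positions of count 14 to 393 at 4 h and a tallest of 373 at 2 h and 331 in untreated cells. The cluster at 33518165 to 33544704 on chromosome 17 held 14 positions, the tallest at 241, against 9 positions up to 69 in untreated cells. That at 22739098 to 22762472 on chromosome 11 held 15, the tallest at 239, against 10 up to 86 in untreated cells. The cluster with the next most positions after the widest, 75998337 to 76035845 on chromosome 15, did overlap H3K27me3, with 6 peaks at 4 h, and its 28 Pol II positions had a median count of 20.5 and a tallest of 112.

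The 5 clusters of highest count without Pol II had counts of 248 to 269, led by 62823598 to 62826526 on chromosome 10. Their nearest Pol II position at 4 h was 41.6, 27.1, 41.6, 39.0 and 2.66 kb away. All 5 held Pol II in untreated cells, at counts of 9 to 18, and 2 of them at 2 h, at 19 and 28. In 2 of the 5 the tallest untreated count was 9, below the lowest count of the 4 h list. None overlapped Jmjd3 or H3K27me3.

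The tallest inside positions, of counts 392 to 401, were each at a Jmjd3 peak and in clusters with 4 to 25 Pol II positions. Position 101933637 on chromosome 14 had 401 at 4 h and 398 at 2 h, against 118 in untreated cells. Position 143171685 on chromosome 5 also had 401 at 4 h and 398 at 2 h, against 321 in untreated cells. The cluster around the chromosome 14 position had a count of only 76, below the median of the list.

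Among the tallest positions outside clusters, the count in untreated cells ran from 18 to 320. Position 101945711 on chromosome 14, 0.943 kb from a cluster of count 16, had 362 at 4 h, 252 at 2 h and 25 in untreated cells. Position 53623904 on chromosome 11, 0.702 kb from a cluster of count 244, had 312 at 4 h, 337 at 2 h and 22 in untreated cells. Positions 78777117 and 78778869 on chromosome 11, 6.19 and 7.94 kb from a cluster of count 15, had 337 and 327 at 4 h, against 25 and 18 in untreated cells. Positions 101458227 and 87259521 on chromosome 11 had 360 and 337 at 4 h and 293 and 320 in untreated cells, and their nearest clusters, of counts 12 and 13, held no Pol II. Position 116680260 on chromosome 10 had 355 at 4 h, 11 at 2 h and 259 in untreated cells. The tallest far position, 55632268 on chromosome 12, was 13.6 kb from a cluster and had 373 at 4 h and 311 in untreated cells. Of the 223 far positions of count over 100, 200 were on the 2 h list, 170 on the untreated list, 28 at H3K27me3 at 4 h and 11 at Jmjd3. Over all far positions, the shares were 56.8% at 2 h, 1.92% for H3K27me3 and 0.762% for Jmjd3. With untreated cells it was 42.8%, on the parts of chromosomes their list covered.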

How the data were processed

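Each deposited file is a peak list of 1 library. Per the file headers its measurement is an overlap count in whole numbers, treated here as unscaled signal. The labels' protocols give fragments of about 200 to 300 bp, and the submitters' processing notes name the mm8 build. How tags were aligned, and which caller, threshold and control gave the peaks, is not given in the sources used here. Groups follow the sample titles.

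Distances ran from a position to the nearest cluster edge. Single positions of different lists overlapped when less than 500 bp apart, and clusters when sharing 1 bp. Classes used quartiles of a list, with equal counts kept together. Shares have Clopper-Pearson intervals. The members, classes and lists were chosen with earlier results of these data known. Named regions were the 5 clusters of highest count, the 5 widest, the 5 with most positions and the 5 of highest count without Pol II, and the 5 tallest positions of each zone. Alternatives changed the overlap rule, count thresholds, chromosomes and distances; those without sites on the lists of all antibodies, and those combining chromosome ends with another rule, were added after seeing the data. Runs, fine bins and distances within clusters were also chosen then.

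Tables and intervals were computed with scipy 1.17.1, pandas 2.3.3 and numpy 2.4.6 under Python 3.11.15, and plots with matplotlib 3.10.9. Overlaps were tested on simulated data, and 6 were checked with bedtools 2.31.1, with equal counts.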

Additional observations from a re-analysis of the deposited data

How the results depend on the processing

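The share of clusters holding Pol II was 54.8% with Pol II positions above their median count and 93.5% with clusters above theirs. The inside share of positions was 35.3% with no window, 39.1% within 1 kb, and 55.4% and 27.3% with the same count limits. The near share was 16.5% and 12.8% under those windows, 12.4% and 11.6% under the count limits, and 6.64% and 26.4% with near meaning 2 and 10 kb. The width difference was 62.3 and 7.68 points under the count limits and 8.89 points in the window of 1 kb at the centre. The count difference was 68.5 points within 1 kb, 79.9 and 19.9 points under the count limits, 30.6 points in the central window and 63.4 points within width classes. The median difference between inside and far positions was 23 within 1 kb and 31 and 37 under the count limits. The difference of holding shares between 4 h and untreated cells was 4.29 and 5.52 points under the count limits and 1.66 points without chromosome ends. It was 6.81 points with a shared lowest count, and 5.32 points with that and without chromosome ends. The shared lowest count removed untreated positions alone. The difference was -0.173 points with lists of equal length, a choice that could only lower the 4 h share. It was -1.81 points when the chromosome ends were then left out, which left the 4 h Pol II list the shorter. A limit on the cluster count removes the low count classes by construction. Width and count classes were then redrawn by the quartiles of the clusters left. The cause of the other shifts was not tested. Of the 53 alternatives, 23 gave a value within the interval of the reported one and 2 turned its sign.

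No paired analysis was possible because each antibody and time was 1 library. Depth was unknown, and a cluster without a listed position is not shown to lack Pol II.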

Other observations

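Chromosomes differed modestly in the share of H3K4me3 clusters that held Pol II at 4 h. It was lowest on chromosome 13, at 55.6% (52.2 to 58.9), and chromosome 18, at 56.7% (52.5 to 60.9), and highest on chromosomes 7 and 11, at 68.5% (65.9 to 71.0) and 68.3% (66.0 to 70.6). Weighted to the count classes of the whole list, the range was 58.2% to 67.4%, with chromosomes 18 and 19 at its ends. Chromosome X had the highest inside share of Pol II positions, 49.8% of 1031, against 29.9% of 2264 on chromosome 16, while its clusters held Pol II about as often as the list as a whole (62.7%, 58.6 to 66.7). Chromosome M had 4 Pol II positions and no H3K4me3 cluster, and 64 positions on the other chromosomes lay over 1 Mb from a cluster, with a median count of 16 and a tallest of 266.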
